A study of Mus musculus with 18 samples.

Results

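Stat2, Stat3, Irf1, Irf7, Irf9 and Socs3 are 6 genes whose proteins carry, amplify or dampen signals from cytokine and interferon receptors. They were picked by name, by their symbols in the authors' deposited table, and all 6 were found among its 12205 genes. The table holds changes in primary astrocytes, wild-type cells of newborn C57BL mice with the sexes pooled, that were thawed and grown in culture. TNFα at 20 ng/ml and IL-1β, also an inflammatory cytokine, at 0.25 ng/ml were added for the last 24 h or 48 h of culture, after 96 h or 72 h without them. Untreated cells were collected at 120 h, the same total time. From each lysate, RNA-seq measured mRNA abundance and ribosome profiling counted the fragments that ribosomes shield from RNase I, called footprints, with 3 batches in each of the 6 groups.

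For each gene the authors' deposited table has 1 log2 value against untreated cells for RNA, for footprints and for translation efficiency (how footprints moved relative to RNA), at 24 h and at 48 h. It has no value per batch. How far batches vary, and how deeply libraries were sequenced, is therefore unknown, no difference below was tested, and the words higher and lower go by size: they mean a 2-fold change or more, log2 values from 1 upwards or from -1 downwards, unless a value is given. The 24 h and 48 h columns share their untreated libraries. In such bulk samples, more RNA per cell and more cells of a type that makes the RNA cannot be told apart. The table has no expression levels, so the identity of the cells could not be checked from their markers. All 9 astrocyte markers looked up were in it, and so were all 4 fibroblast and pericyte markers. Of the others, 4 of 7 oligodendrocyte, 3 of 5 neuronal and 2 of 4 endothelial markers were in it, and 3 of 13 microglia and macrophage markers. The 3 microglia and macrophage markers had RNA values from 0.18 to 1.80 at 24 h, and from 0.09 to 7.55 at 48 h, where Adgre1 was the highest, in the authors' deposited table. Of the other marker lists, 2 of 9 astrocyte, 2 of 4 measured oligodendrocyte and 2 of 4 fibroblast and pericyte markers were higher by 1 in RNA at 24 h, and 0 of 3 neuronal and 0 of 2 endothelial ones. Lower by 1 were 5 astrocyte, 1 neuronal and 2 endothelial markers. The 4 fibroblast and pericyte markers had RNA values from -0.96 to 4.16 at 24 h, and from -1.16 to 5.73 at 48 h, in the authors' deposited table. Of all genes, 7.54% were higher and 9.55% lower by 1 in RNA at 24 h, and lists this short can have none by these shares. The part of these markers in the results was not tested.

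Signals from type I interferon receptors pass through the kinases Jak1 and Tyk2 to STAT proteins, among them Stat2, which acts with Irf9 in a complex called ISGF3 that switches on genes with an interferon-stimulated response element (ISRE). Interferon gamma acts through another element, the gamma-activated site (GAS), which paired STAT proteins bind, and Irf1 is a classical gene turned on in this way and by NF-kB. Irf7, itself induced by interferon, drives further type I interferon production. Cytokines of the interleukin-6 family signal through Stat3, which in astrocytes is known for its role in the reactive state after injury, and Socs3 is the feedback inhibitor that blocks their receptor and the attached JAK kinase.

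The upstream sequences of Irf1, Stat2 and Socs3 are shown because each holds a match to an element through which these pathways are known to act. They are the 250 bases before the annotated start of Irf1 (chr11:53769764-53770013, plus strand) and of Stat2 (chr10:128270248-128270497, plus strand). For Socs3 they are 30 bases around its match (chr11:117969501-117969530, minus strand). These were cut from the 250 bases before a start of Socs3 that lies inside its annotated span. All are from RefSeq on GRCm38.p6, written 5′ to 3′ with the matches in capitals.
Irf1: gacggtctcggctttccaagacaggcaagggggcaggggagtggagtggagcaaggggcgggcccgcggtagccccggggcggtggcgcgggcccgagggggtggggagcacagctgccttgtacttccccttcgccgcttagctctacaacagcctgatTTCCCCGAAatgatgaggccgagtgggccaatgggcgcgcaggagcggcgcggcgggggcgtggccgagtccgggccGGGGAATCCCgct
Stat2: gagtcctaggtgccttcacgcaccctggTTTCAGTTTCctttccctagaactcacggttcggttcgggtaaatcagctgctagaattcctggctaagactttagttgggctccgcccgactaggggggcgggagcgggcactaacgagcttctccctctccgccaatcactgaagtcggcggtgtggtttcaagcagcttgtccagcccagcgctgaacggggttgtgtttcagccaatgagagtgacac
Socs3: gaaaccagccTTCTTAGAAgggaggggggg

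Of the Irf1 capitals, the first run matches GAS (searched as TTCNNNGAA), from 90 to 82 bases before the start, and the second matches the NF-kB consensus, from 13 to 4 bases before it. The Stat2 run is a match on the opposite strand to the ISRE core, searched as GAAA and GAAA with any 2 bases between them, from 222 to 213 bases before the start. The Socs3 run matches GAS from 154 to 146 bases before the start. The 3 motifs were searched on both strands in windows from 250 bases before to 50 bases after each start, and none of the 4 matches overlapped another. Among 32851 such RefSeq windows, GAS was in 8.30%, the ISRE core in 3.44% and the NF-kB consensus in 4.51%. The windows of Stat3, Irf7 and Irf9, and a further window of Irf1, held none of these letters. The starts used for Stat3 and Irf7 lie inside their annotated spans, as that of Socs3 does. For Stat3 and Irf7, fewer than 250 bases before the span were therefore searched. The further window of Irf1 and a further window of Irf9 also belong to starts inside the spans. A match is a description of the sequence, and its use in these cells was not measured.

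After 24 h, 4 of the 6 genes, Irf7, Irf1, Stat2 and Irf9, were higher by at least 1 in RNA, and the same 4 in footprints. Of all genes, 7.54% were higher by this size in RNA and 7.87% in footprints at 24 h. After 48 h, Irf1 and Irf7 alone among the 6 were still past 1 in RNA or footprints, against a background of 8.11% in RNA and 8.13% in footprints. None of the 6 was lower by 1 in RNA or footprints at either time, as 9.55% and 8.70% of genes were at 24 h and 10.3% and 8.71% at 48 h. In RNA at 24 h the order from high to low was Irf7, Irf1, Stat2, Irf9, Stat3 and Socs3. At 48 h it was Irf1, Irf7, Stat3, Irf9, Stat2 and Socs3, in RNA and in footprints alike. How far neighbours in these orders differ beyond the spread between batches is unknown.

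**Figure D1:**
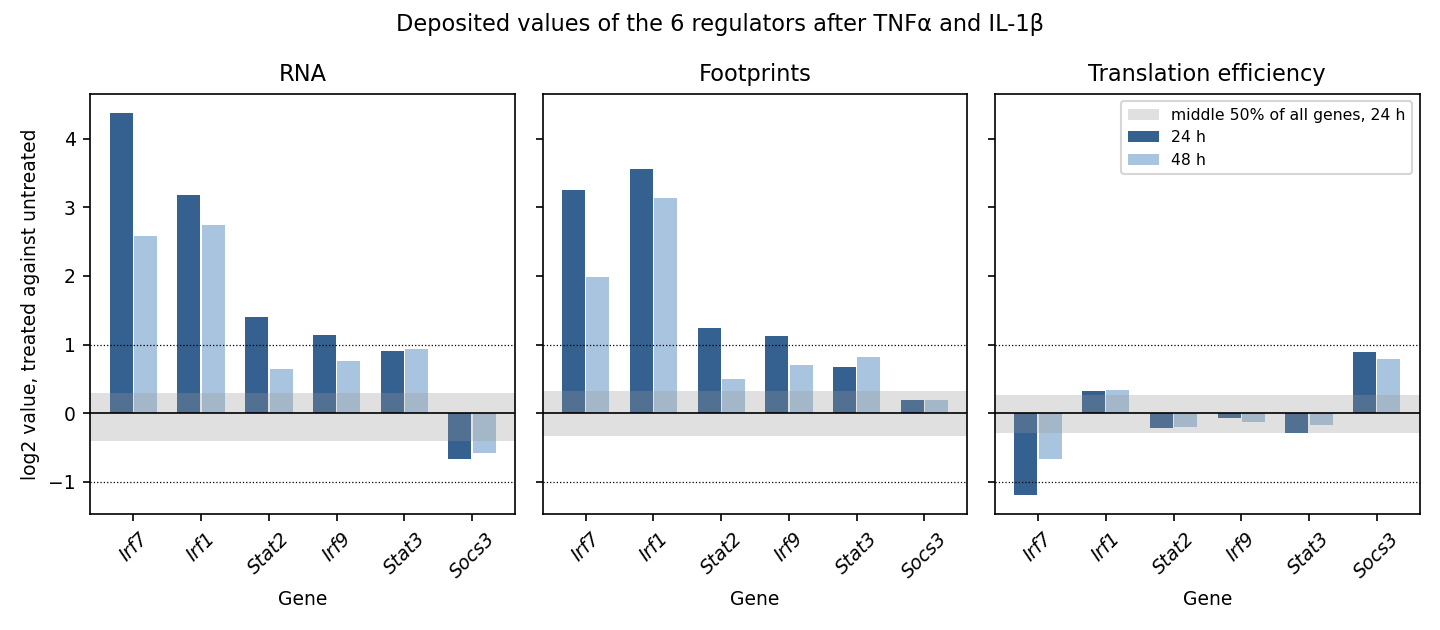
Log2 values of the 6 genes against untreated cells in RNA, footprints and translation efficiency, 1 bar for 24 h and 1 for 48 h, from the authors' deposited table. Dotted lines mark 1 and -1, and the grey band the middle 50% of all genes at 24 h. Irf7 and Irf1 stand highest in RNA and footprints, and Socs3 alone lies below 0 in RNA and above 0 in footprints.

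The ISGF3 subunit genes Stat2 and Irf9 were moderately higher at 24 h and closer to untreated cells at 48 h. Stat2, which lies on chromosome 10 from 128270498 to 128292853 (GRCm38.p6), had RNA values of 1.40 at 24 h and 0.65 at 48 h in the authors' deposited table, or 2.64-fold and 1.57-fold. Its footprint values there, in the authors' deposited table, were 1.24 and 0.50, close to those of its RNA. Stat2 was among the top 5.51% of genes in RNA at 24 h and among the top 12.4% at 48 h.

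Irf9, the subunit of ISGF3 that recognises the ISRE, had RNA values of 1.14 and 0.76 and footprint values of 1.13 and 0.71 at 24 h and 48 h in the authors' deposited table. This is 2.20-fold and 1.69-fold in RNA. Irf9 lies on chromosome 14 from 55603985 to 55610030. Both genes had lower values at 48 h than at 24 h in RNA and in footprints.

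Irf7 had the largest RNA value of the 6 and the largest difference between the times. Its RNA stood at 4.38 at 24 h, a 20.8-fold change, and at 2.59 at 48 h, or 6.01-fold, in the authors' deposited table. Only 1.30% of all genes had an RNA value as high at 24 h. In footprints, the authors' deposited table had 3.26 and 1.98, or 9.55-fold and 3.95-fold, so that Irf7 ranked second to Irf1. Irf7 lies on chromosome 7 from 141263183 to 141266499, and no other RefSeq gene overlaps it.

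Irf1, an activator of genes for antigen presentation and nitric oxide synthesis, was the highest of the 6 in footprints at both times. The authors' deposited table gave its RNA as 3.18 at 24 h and 2.74 at 48 h, or 9.04-fold and 6.67-fold. Its footprint values in the authors' deposited table were 3.55 and 3.14, or 11.7-fold and 8.80-fold. In footprints, 1.73% of all genes were as high at 24 h and 1.93% at 48 h. Irf1 lies on chromosome 11 from 53770014 to 53778374, just after the GAS and NF-kB matches printed above.

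Stat3 stayed below the limit of 1 in every column. Its RNA values were 0.90 and 0.93, and its footprint values 0.67 and 0.82, at 24 h and 48 h in the authors' deposited table. Among all genes, 8.27% were as high in RNA at 24 h. On chromosome 11, Stat3 (100886806 to 100939594) lies next to Stat5a (100859351 to 100885169), which is followed by Stat5b (100780731 to 100859004). In the authors' deposited table, the RNA of Stat5a stood at 1.19 and 1.30, and that of Stat5b at -0.20 and -0.33. Stat5a and Stat5b are close copies that may share reads, so their values are uncertain.

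Socs3 was the only one of the 6 with RNA below the untreated level, by less than the limit. In RNA it stood at -0.67 at 24 h and -0.58 at 48 h in the authors' deposited table, which is 0.629 and 0.670 times the untreated level. Its footprint values in the authors' deposited table were 0.19 and 0.20, or 1.14-fold and 1.15-fold. Ribosome footprints on Socs3 were near the untreated level at both times, while its mRNA was below that level by less than 2-fold. This gap was not tested. At 24 h, 30 of 12205 genes (0.246%), Socs3 included, had RNA as low and footprints as high. At 48 h there were 115, or 0.942%, and 15 genes (0.123%) did so at both times. Both limits were set at the values of Socs3 itself, which keeps these counts small. By translation efficiency, 2.86% of all genes were as high as Socs3 at 24 h. Socs3 lies on chromosome 11 from 117966079 to 117970336.

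Translation efficiency separated Irf7 and Socs3 from the other 4. Irf7 had -1.19 at 24 h and -0.67 at 48 h in the authors' deposited table, and 0.909% of all genes were as low at 24 h. At 24 h it was the only one of the 6 past -1, as 1.32% of genes were, and at 48 h none was, against 1.71%. Socs3 had 0.89 and 0.79 in the authors' deposited table, and 2.86% of all genes were as high at 24 h and 5.91% at 48 h. None of the 6 was higher by 1, as 1.79% of genes were at 24 h and 2.85% at 48 h.

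The remaining 4 genes had translation efficiency values between -0.29 and 0.33 at 24 h, within or just above the middle 50% of all genes, which ran from -0.29 to 0.26. Irf1 was above 0 at both times, at 0.33 and 0.33 in the authors' deposited table. Stat2 (-0.21 and -0.20), Stat3 (-0.29 and -0.17) and Irf9 (-0.07 and -0.13) were below 0 at both in the authors' deposited table. For comparison, 950 genes had a mean RNA value of at least 1 over both times, and 64.1% of these had a translation efficiency below 0 at 24 h. Among them 6.42% were as low as Irf7 at 24 h, and 26.9% were above 0 at both times, as Irf1 was. Translation efficiency contains the RNA value with a minus sign, so an error in the RNA value moves both in opposite directions. The deposited translation efficiency of the 6 genes differed from the footprint minus the RNA value by -0.07 to 0.03.

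**Figure D2:**
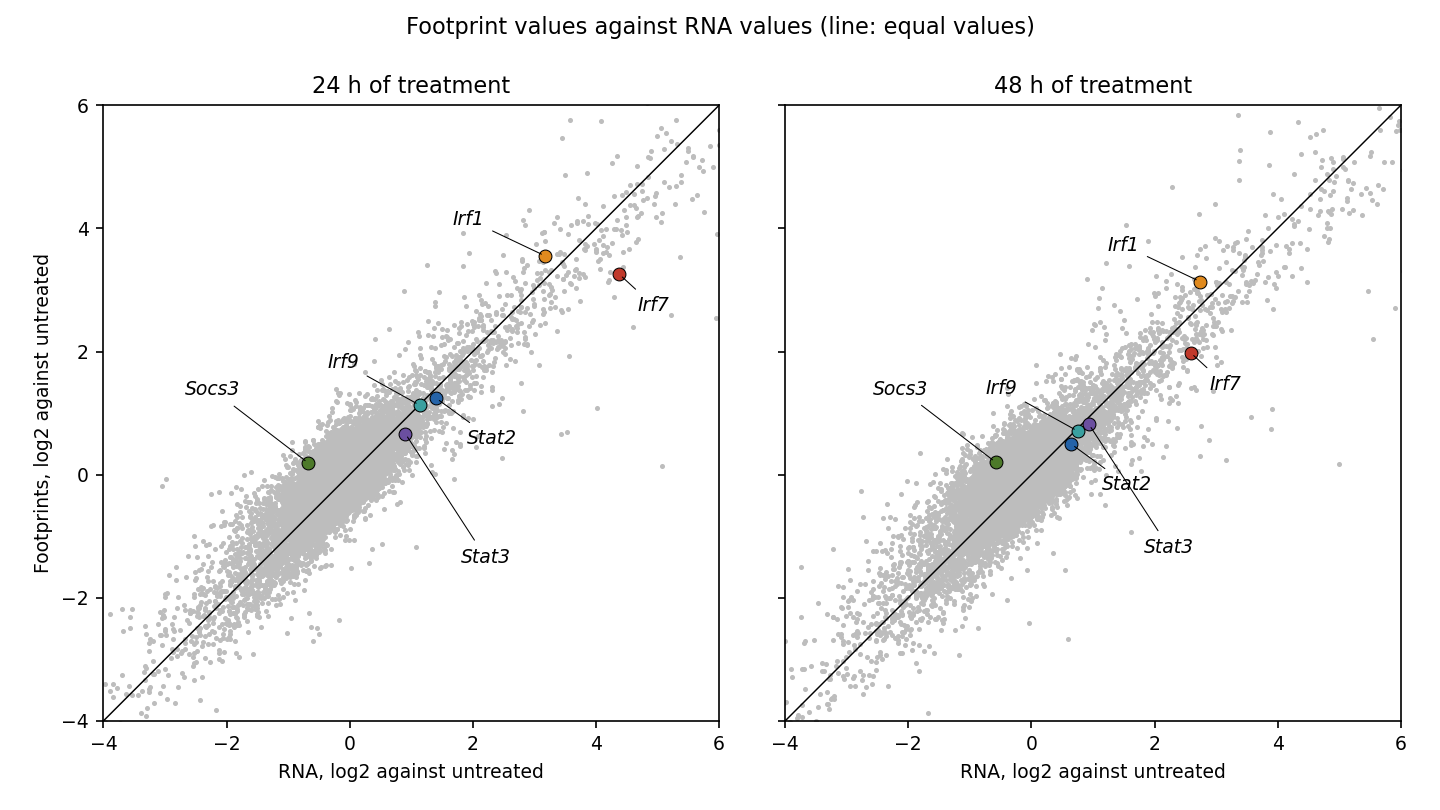
Footprint values against RNA values, both log2 against untreated cells, at 24 h and 48 h, with 1 grey point per gene, the 6 genes in colour and a line where both are equal. Genes beyond the axes are not drawn. Irf7 lies below the line (4.38 in RNA and 3.26 in footprints at 24 h), Socs3 above it (-0.67 and 0.19), and the other 4 near it.

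The 48 h values were then set against the 24 h values, as the difference of the 2 log2 values. The untreated libraries drop out of it if both columns used the same untreated value, which could not be checked. The difference was below 0 for Irf7, Stat2, Irf1 and Irf9, and closer to 0 for Stat3 and Socs3. Since Stat2 and Irf9 passed 1 at 24 h alone, having been past 1 there is no independent sign of a later decrease. Irf7 differed by -1.79 in RNA and -1.28 in footprints, and it alone among the 6 was lower by 1, as 0.926% of all genes were in RNA and 1.07% in footprints. Among the 950 genes with a mean RNA value of at least 1, 6.21% were lower by 1 in RNA. Stat2 differed by -0.76 in RNA and -0.75 in footprints, Irf1 by -0.44 and -0.42, and Irf9 by -0.38 and -0.42. In RNA 183 of all genes had a difference as low as that of Stat2, 547 as low as that of Irf1 and 710 as low as that of Irf9. For Stat3 the differences were 0.03 in RNA and 0.15 in footprints, and for Socs3 0.09 and 0.01, with all-gene quartiles of -0.12 and 0.12 in RNA.

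In translation efficiency none of the 6 differed by 1 between the times, as 1.18% of genes did in either direction. Irf7 was highest with 0.53, since its RNA differed more than its footprints. The other 5 lay between -0.09 and 0.12. Of the 950 genes with a mean RNA value of at least 1, a limit that Irf7, Irf1 and Stat2 reach and Irf9 does not, 46.3% had a difference below 0 in RNA and 49.3% in footprints.

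Lists of known targets are set beside the regulators. All 20 ISGF3 targets had an RNA difference below 0 between 48 h and 24 h, with a median of -1.17. Of them, 15 were lower by at least 1, beside 0.926% of all genes. Among the 950 genes with a mean RNA value of at least 1, this share was 6.21%. The median RNA value of the ISGF3 targets was 3.73 at 24 h and 2.54 at 48 h, beside all-gene medians of -0.03 and -0.02. Of 12 measured IRF1 targets, 11 had a difference below 0, with a median of -0.68, and 3 were lower by at least 1. Of 15 STAT3 targets, 11 had a difference below 0, with a median of -0.11, and 1 was lower by at least 1. For all genes the median RNA difference was -0.005, with quartiles of -0.12 and 0.12. The STAT3 target median lay within these quartiles. Of the 950 genes, 46.3% had an RNA difference below 0. The STAT3 targets were mixed at 24 h, when 6 were higher and 2 lower by 1 in RNA, with a median of 0.79, beside 7.54% and 9.55% of all genes. The targets Cebpb (3.15) and Bcl3 (3.02), which code for transcription regulators, were higher, and Gfap (-1.79), the astrocyte filament gene, and the kinase gene Pim3 (-1.64) were lower in RNA at 24 h in the authors' deposited table. Socs3 is itself on this list.

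**Figure D3:**
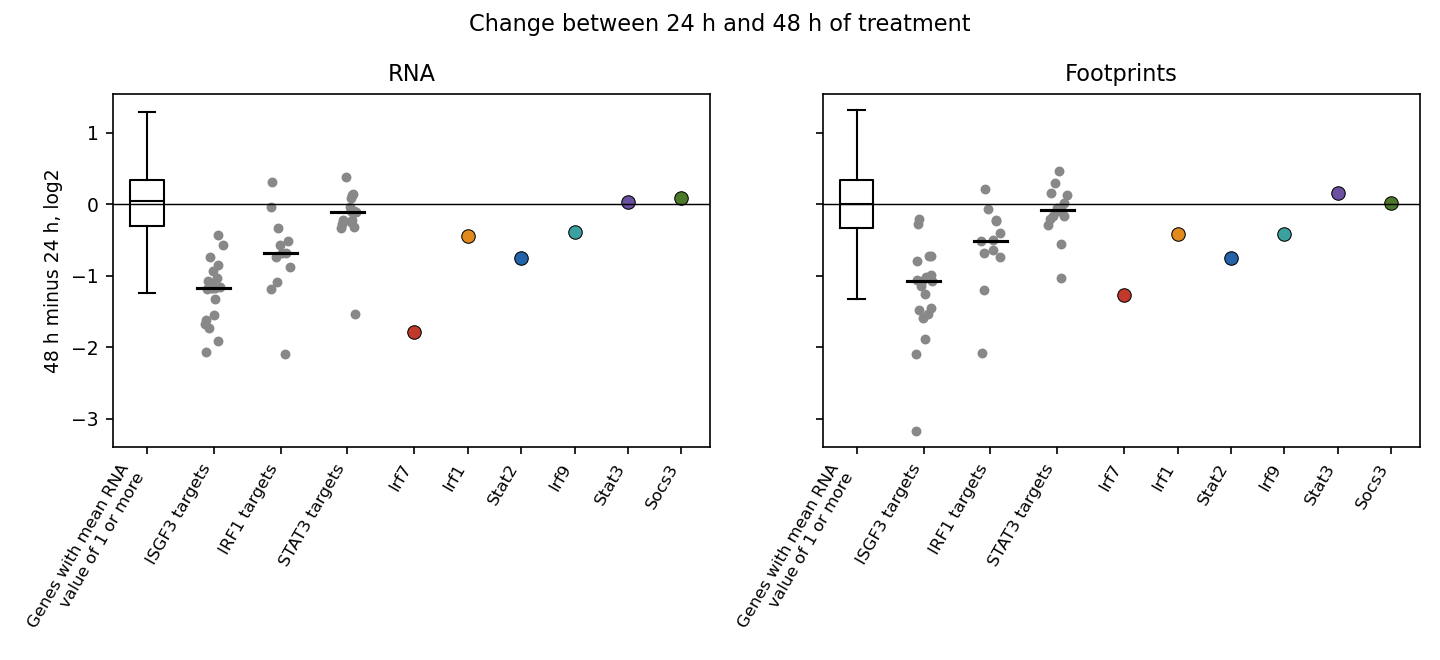
Difference of the 48 h and 24 h log2 values in RNA and footprints for the 950 genes with a mean RNA value of at least 1 (box, median and quartiles, whiskers to 1.5 times the interquartile range), for 3 lists of target genes (grey points, bar at the median) and for the 6 genes. Irf7 (-1.79 in RNA) lies among the ISGF3 targets, whose median is -1.17, while Stat3 and Socs3 lie near 0.

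The families of the 6 genes held relatives with large and with small values. Counts in these families stand beside 7.54% of all genes higher and 9.55% lower by 1 in RNA at 24 h. Among 5 measured STAT genes of 6 looked up, Stat2 and Stat5a were higher by 1 in RNA at 24 h, and Stat6 was at 0.25 in the authors' deposited table. Of 6 measured IRF genes, Irf1, Irf5, Irf7 and Irf9 were higher, and Irf5, which acts in inflammatory cytokine induction, had RNA values of 2.30 and 2.36 at 24 h and 48 h in the authors' deposited table. The RefSeq span of Irf5 overlaps that of Tnpo3, and whether counting used strand is not stated, so its value is uncertain. The same limit holds for Stat2, whose span overlaps that of Apof, and for Stat3, whose span overlaps that of Gm46295. Neither Apof nor Gm46295 has a value in the authors' deposited table. Irf2 (0.28 and 0.14), known as an antagonist of Irf1, and Irf3 (0.18 and 0.15), activated by phosphorylation, had small RNA values at both times in the authors' deposited table.

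Of all genes, 7.54% were higher and 9.55% lower by 1 in RNA at 24 h, and at shares like these a list of 7 can have none. None of the 7 measured SOCS family genes passed 1 in RNA or footprints, and their median RNA value was 0.04 at 24 h. Socs3 was the lowest of them in RNA at 24 h, followed by Cish with -0.48 in the authors' deposited table, whose footprint value was 0.45 and translation efficiency 1.29. Cish thus showed the same signs as Socs3 at 24 h. Socs1 was looked up, but no value was obtained for it. Of the 4 JAK kinase genes, Jak2 alone passed 1, with 2.99 and 3.22 in RNA and 2.74 and 2.90 in footprints at 24 h and 48 h in the authors' deposited table. Jak1 (0.42), Tyk2 (0.51) and Jak3 (-0.89) did not pass it in RNA at 24 h in the authors' deposited table.

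**Figure D4:**
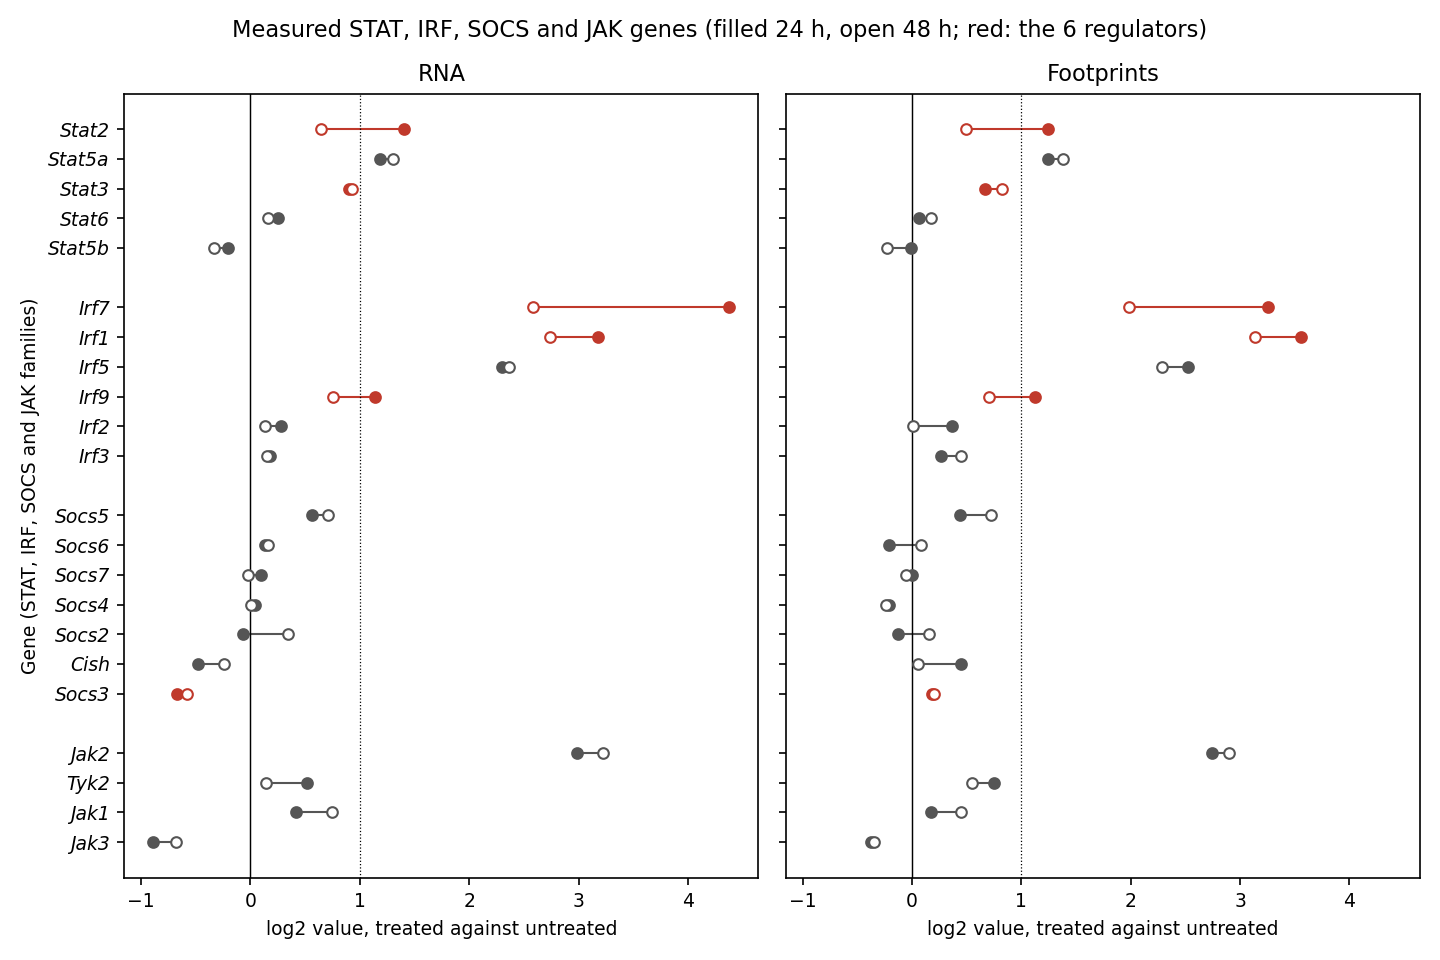
RNA and footprint values, log2 against untreated cells, of the STAT, IRF, SOCS and JAK genes looked up and measured, with filled points for 24 h, open points for 48 h and the 6 genes in red. The dotted line marks 1. Irf7 and Irf1 stand highest among the IRF genes except in footprints at 48 h, where Irf5 (2.29) lies above Irf7 (1.98), and every measured SOCS gene lies below 1.

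Upstream of the regulators, several receptor and ligand genes were higher, and their counts stand beside 7.54% of all genes higher and 9.55% lower by 1 in RNA at 24 h. Of 13 measured receptors of interferons and the interleukin-6 family, 4 were higher by 1 in RNA at 24 h (Ifngr1 at 1.65, Ifngr2 at 1.53, Il10rb at 1.48 and Ifnar2 at 1.31 in the authors' deposited table) and 0 lower. Il6st, the shared receptor chain on which Socs3 acts, had an RNA value of 0.50 at 24 h in the authors' deposited table. Of 4 measured ligands, the Stat3-activating cytokines Il6 (6.84) and Lif (3.07) were higher in RNA at 24 h in the authors' deposited table. The interferon genes on the list (Ifnb1, Ifna4 and Ifng) were looked up, but no value was obtained for them.

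Among 15 sensors, adaptors and kinases that activate IRF proteins, 9 were higher by 1 in RNA at 24 h and 0 lower, beside 7.54% and 9.55% of all genes. The kinase gene Ikbke, whose product phosphorylates Irf3 and Irf7, stood at 2.78 and the related Tbk1 at 1.13, in the authors' deposited table. Zbp1, a nucleic acid sensor, was highest at 6.68 in the authors' deposited table. Of 10 other negative regulators of JAK-STAT signalling, 2 were higher in RNA at 24 h and 0 lower, beside the same background. They were Usp18, which blunts signalling of the type I interferon receptor, at 3.27, and the phosphatase gene Ptpn2, at 2.50, in the authors' deposited table. Usp18 is also an ISGF3 target, and it stood at 2.10 in RNA at 48 h in the authors' deposited table.

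The genes nearest to each of the 6 in pattern were taken by Euclidean distance over 4 values, RNA and footprints at 24 h and 48 h. Nearest to Irf7 were Rsad2 (0.74), Ifit3 (0.76) and Syt7 (0.78), distances larger than for the other members. Around Irf1 were Sod2, Cx3cl1 and Psmb9 (0.34 to 0.35), and around Stat2 Rnf135, Shroom4 and Mitd1 (0.35 to 0.36). Irf9 had Aida (0.08), Idnk and Arhgef2, Stat3 had Hs6st2 (0.11), Zfp697 and Tle1, and Socs3 had Nr2f6 (0.11), Cox4i1 and Isoc2b. With translation efficiency added to the distance, 0 of the 3 genes near Irf7 remained among its nearest 3, 2 of 3 remained for Irf9 and 1 of 3 for each of the other members.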

How the data were processed

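RNA and ribosome footprints were measured in 18 libraries, 3 batches in each of 6 groups. The submitters' processing notes name TopHat2, featureCounts and the mouse build mm10. Not given in the sources used here are versions, the normalization, the way batches were combined and the method behind the fold changes. Values deposited by the authors are log2, 6 per gene for 12205 genes with none missing, and per the file headers they compare treated with untreated cells. The header of translation efficiency names no scale, and it was read as log2 because, for 79.5% of genes at 24 h, it differs by at most 0.1 from footprints minus RNA.

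Differences, ranks, counts past 1 and distances were computed with Python 3.11.15, pandas 2.3.3 and numpy 2.4.6, and the functions were tested on simulated data. A test across batches could not be run on 1 value per comparison. The 6 genes and the 11 pathway and 6 marker lists were chosen with earlier results of these data known. Named are the 6 genes, the 3 nearest genes to each, STAT, IRF, SOCS and JAK genes, and up to the 4 highest and 3 lowest RNA values at 24 h of every other list, from which the text names some. Il6st, Adgre1 at 48 h, Tbk1 and the genes for which no value was obtained were named after the results were seen. Of the gene identifiers, 12201 were in the table of gene names. Gene symbols gave positions and promoters for all 6 genes in RefSeq tables of GRCm38.p6. A result on a further gene of these families is not reported here.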

Additional observations from a re-analysis of the deposited data

How the results depend on the processing

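All 36 values of the 6 genes kept their sign and their side of 1 when each column was centred on the median of all genes, as did the 12 translation efficiency values when taken as footprint minus RNA, and centring left all 9 counts as they were. The size that counts as higher or lower mattered more. At 1.5-fold, 6 of the 6 genes passed in RNA at 24 h, of which Socs3 (-0.67) in the lower direction, and 5 in footprints, while 5 passed in RNA and 4 in footprints at 48 h, and 2 in translation efficiency at 24 h and 2 at 48 h, and 2 differed between the times in RNA and 2 in footprints. At a log2 value of 2, 2 passed in RNA and 2 in footprints at 24 h, 1 in footprints at 48 h and 0 in translation efficiency at 24 h. The shares of all genes past these 2 other sizes were not computed, so the counts cannot be set against a background. Values near 1.5-fold were common: 15.8% of all genes had RNA as low as Socs3 (-0.67) at 24 h. In RNA at 48 h, 12.4% were as high as Stat2 (0.65). Near a log2 value of 2, 3.79% were as high as Irf7 (1.98) in footprints at 48 h. No paired analysis was possible because the deposited table has no values per batch, and for the same reason no batch could be left out. Without counts, the depth behind each value and the precision of the smaller differences, such as those of Irf9 and Stat3, are unknown.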
